A study of Bos taurus with 5 samples.

Results

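Transcript levels of 10 genes that encode intermediate filament proteins and nuclear lamins were followed through 5 RNA sequencing libraries from cattle (Bos taurus). The genes were taken by name from a table of 27607 genes, where each of the 10 names had 1 entry. They were VIM (vimentin), NES (nestin), the type II keratins KRT5, KRT6A and KRT8, the type I keratins KRT10, KRT18 and KRT19, and the lamin genes LMNA and LMNB1. Each library has its own tissue label, which is brain, skin, lung, heart or limb, so there is 1 library per label. Per the labels' protocols, cells were lysed and their RNA was pre-amplified on a Fluidigm C1-HT IFC, a microfluidic chip made for single cells. The sources used here do not give the number of cells and animals behind a library, or the age, breed and any treatment of the animals. With no replicates, every difference below describes these 5 libraries, with no error and no p-value.

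Intermediate filaments are rope-like polymers that give a cell and its nucleus mechanical strength, and which of them a cell makes depends strongly on its type. Keratins, the filaments of epithelia, assemble only from pairs of a type I and a type II protein, such as KRT18 with KRT8 in simple epithelia or KRT10 with KRT1 in the upper epidermis. Vimentin, of mesenchymal and many cultured cells, can polymerise by itself, and nestin, found in progenitors of nerve and muscle, joins filaments of vimentin. Lamins line the inside of the nuclear envelope, with A-type lamins coming from LMNA and a B-type lamin from LMNB1.

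The values were taken as FPKM, which divides the fragments of a gene by the length of its transcript and by the mapped total. This scale is meant for comparing genes per length. The unit was inferred, and whether reads covered whole transcripts was not analysed here, so comparisons between genes carry that limit. Between 5109 and 6634 genes were above 0 in a library, and the values above 0 had medians of 21.4 to 38.7 FPKM. Read totals were not analysed here, and only the steps between low values bear on depth. A gene listed at 0 may be expressed below what a library could show. In values of a whole library, fewer cells that express a gene and less RNA per cell cannot be told apart.

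The filament genes that define the labelled tissues were looked at first. DES (desmin), the muscle filament, was listed at 0 in all 5 libraries, heart- and limb-labelled ones included. GFAP, the filament of astrocytes, and the neurofilament genes NEFL, NEFM and NEFH were likewise at 0 under the brain label and in the other 4. In the skin-labelled library KRT5, KRT14 and KRT1 were at 0, and under the lung label the simple-epithelial genes KRT7, KRT8, KRT18 and KRT19 were at 0. A 0 does not show that a gene is absent, since it may be expressed below what a library could show. LMNB1, a B-type lamin gene, was also at 0 in 4 libraries, and whether its cells express it was not tested. Levels above 0 ran only partly with the labels. NES was highest under the brain label, but the other neural progenitor and astrocyte genes above 0 were highest under the lung or heart label. KRT6A stood at 237 FPKM under the skin label but was higher under the lung label, at 422 FPKM. KRT10, of the epidermis, was lower under the skin label (20.8 FPKM) than under the brain (27.8 FPKM) and heart (27.2 FPKM) labels. Because the defining filament genes were not detected, the libraries are named below by label only.

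Of the 10 genes, 7 were above 0 in at least 1 library, where 45.0% of all named genes were. VIM, NES, KRT6A and KRT10 were above 0 in all 5, LMNA in 4, and KRT5 and LMNB1 only under the lung label. KRT8, KRT18 and KRT19 were listed at 0 in all 5. By library, 5 of the 10 were above 0 under the brain label, where 23.9% of all genes were, and 5 under the skin label (18.5% of all genes). The lung-labelled library had 7 (21.7% of all genes), the heart-labelled 5 (24.0%) and the limb-labelled 4 (19.3%). VIM made up most of their summed level in each library, from 64.1% under the lung label to 94.9% under the limb label.

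**Figure D1:**
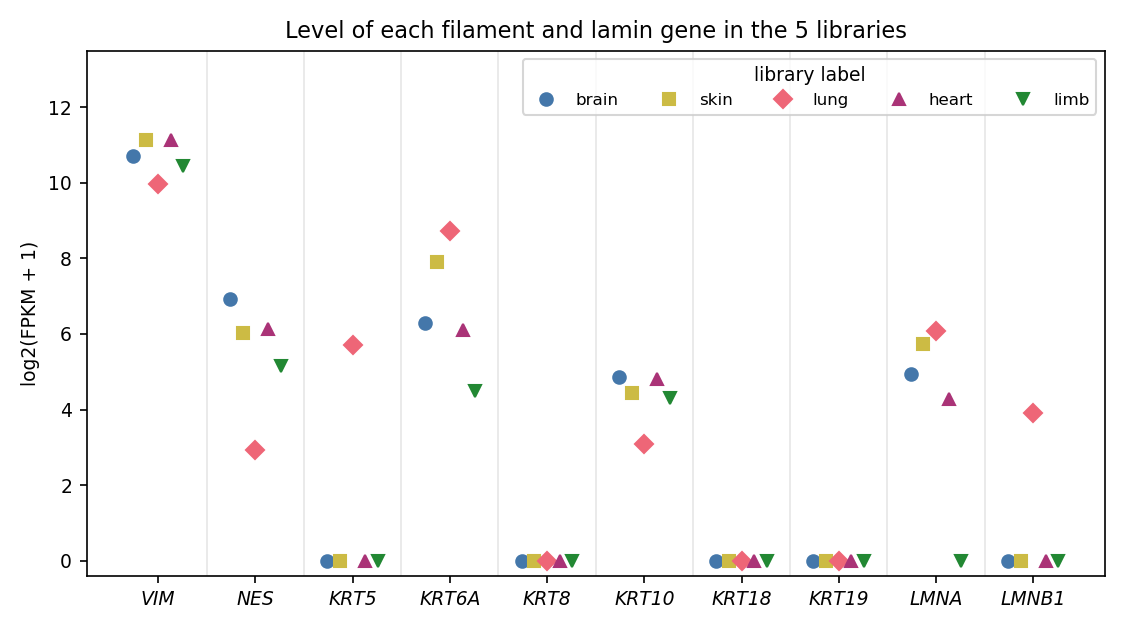
Level of the 10 genes as log2(FPKM + 1) on the vertical axis, with 1 point per library and the library label shown by colour and shape; points at 0 are listed at 0. VIM is the highest gene in each library, KRT8, KRT18 and KRT19 are at 0 throughout, and KRT5 and LMNB1 are above 0 only under the lung label.

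VIM (ENSBTAG00000018463) stood at 1678 FPKM under the brain label, 2251 FPKM under the skin label, 1011 FPKM under the lung label, 2230.1 FPKM under the heart label and 1399 FPKM under the limb label. It was thus an abundant transcript in all 5, higher than 96.0% to 98.7% of the genes above 0 in the same library. The skin- and heart-labelled levels differed by 0.947%, and their order turned under each of the 3 rescalings of the libraries that were tried, so no order is read between them. The lung-labelled library was lowest, and the ratio of the highest value to it was 2.23. This was the narrowest range of the 4 genes above 0 in all 5 libraries. The 13 entries of a list of fibroblast and mesenchyme genes summed to 2655 FPKM under the lung label, against 5572 to 8213 FPKM in the other 4. SPARC, a matrix-binding glycoprotein, made up 855 FPKM of that sum under the lung label and 2144 to 5472 FPKM elsewhere. Of the 9 entries above 0 in any library, 6 were above 0 in all 5. Among these, 4 were lowest under the lung label, namely SPARC, FN1, COL1A2 and COL3A1, where 21.5% of all genes above 0 in all 5 were. COL1A1 was lowest under the skin label at 11.4 FPKM and stood at 37.2 FPKM under the lung label. PDGFRA was highest under the lung label, at 1.57 FPKM. S100A4, the other abundant entry, was lowest under the heart label at 1492 FPKM and stood at 1678 FPKM under the lung label. DCN, LUM, PDGFRB and THY1 of the list were at 0 in all 5. The part of these cells in the level of VIM was not tested.

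NES (ENSBTAG00000015794) stood at 119.7 FPKM under the brain label, 64.4 FPKM under the skin label, 6.64 FPKM under the lung label, 69.5 FPKM under the heart label and 34.4 FPKM under the limb label. The brain-labelled library was highest and the lung-labelled lowest, with the heart- and skin-labelled levels within 7.84% of each other between them. The ratio of highest to lowest was 15.8 after adding 1 FPKM to both values, and it was 3.41 without the lung-labelled and 9.22 without the brain-labelled library. Per length, NES was present at 7.14% of the level of VIM under the brain label, 2.46% to 3.11% under the skin, heart and limb labels and 0.657% under the lung label. Other genes listed as markers of neural progenitors and astrocytes did not follow one order. PAX6, which directs eye and forebrain formation, was highest under the lung label at 42.6 FPKM. HES1, a target of Notch signalling, was also highest there at 106 FPKM, and FABP7, a fatty-acid carrier of radial glia, was lowest there at 70.5 FPKM. GFAP, HES5 and AQP4 of this list were at 0 in all 5.

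KRT6A (ENSBTAG00000039425) is a keratin of hair follicles, oral epithelium and wounded or fast-growing epidermis. It stood at 77.4 FPKM under the brain label, 237 FPKM under the skin label, 422 FPKM under the lung label, 67.7 FPKM under the heart label and 21.3 FPKM under the limb label. The lung- and skin-labelled libraries were high and the limb-labelled low, and the brain- and heart-labelled ones lay 14.3% apart. The ratio of highest to lowest was 18.9 after adding 1 FPKM, and it was 10.7 without the lung-labelled and 6.16 without the limb-labelled library. The level of KRT6A was 41.7% of that of VIM under the lung label and 10.5% under the skin label, against 1.52% to 4.61% in the other 3. In the RefSeq annotation of the ARS-UCD2.0 assembly, KRT6A lies between KRT5 and KRT6B, with KRT6C and KRT75 beyond. Such neighbours have similar sequences, so reads could be split among them and the value of KRT6A is uncertain to that extent. KRT6B and KRT75 were listed at 0 in all 5 libraries, and KRT6C was not analysed here.

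KRT5 (ENSBTAG00000038384), the type II keratin of basal cells in stratified epithelia, stood at 51.0 FPKM under the lung label and was listed at 0 under the brain, skin, heart and limb labels. The same library had the highest level of KRT6A. KRT14, the usual partner of KRT5, was at 0 there, as was TP63, the regulator of basal epithelial cells. Of the other keratinocyte genes, PERP, a desmosome-associated membrane protein, was highest under that label at 243 FPKM. It stood at 204 FPKM under the skin label, 193 FPKM under the heart label and 98.8 FPKM under the limb label, and at 0 under the brain label. DSC3 was at 26.0 FPKM under the lung label, below its 69.7 FPKM under the heart label and 44.05 FPKM under the skin label. KRT10, also of that list, was lowest under the lung label.

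KRT10 (ENSBTAG00000020824), a type I keratin of epidermal cells that have left the basal layer, was higher than 22.6% to 56.2% of the genes above 0 in the same library. Its level was 27.8 FPKM under the brain label, 20.8 FPKM under the skin label, 7.43 FPKM under the lung label, 27.2 FPKM under the heart label and 18.9 FPKM under the limb label. The brain- and heart-labelled levels differed by 2.2%, and their order turned under 2 of the 3 rescalings. The lung-labelled library was lowest, with the ratio of highest to lowest at 3.42 after adding 1 FPKM and 1.45 without that library. KRT1 and KRT2, type II keratins that pair with KRT10 in epidermis, were at 0 in all 5.

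**Figure D2:**
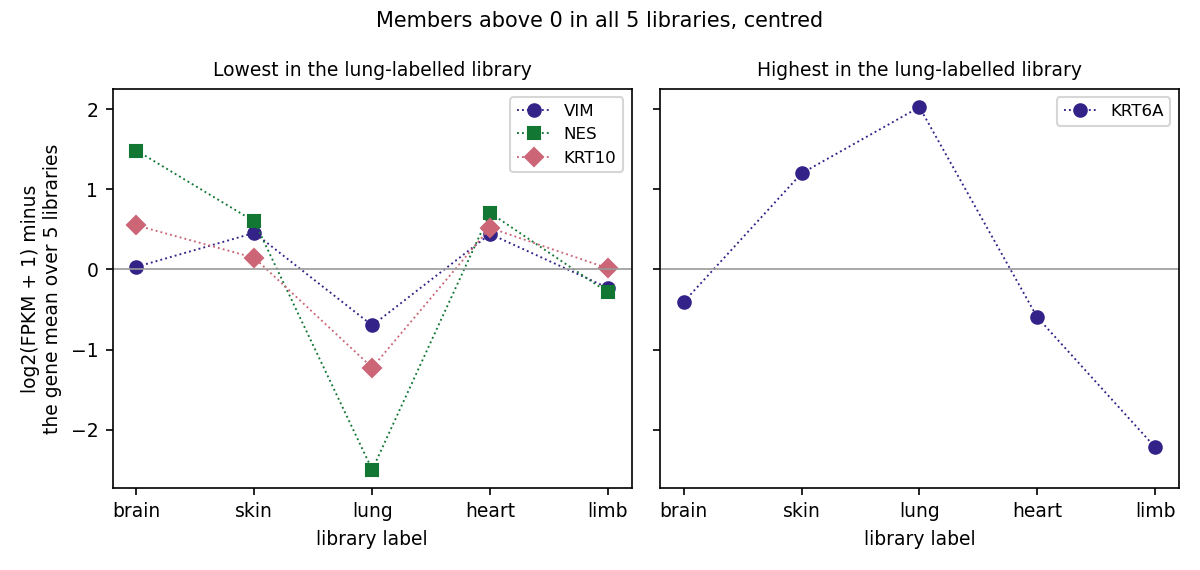
Centred level of the 4 genes above 0 in all 5 libraries, as log2(FPKM + 1) minus the mean of that gene over the 5 libraries, by library label; dotted lines only join the points of 1 gene. VIM, NES and KRT10 are lowest under the lung label, and KRT6A is highest there and lowest under the limb label.

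The keratins were then counted as types, since the proteins assemble in pairs. Of 23 type II entries in the table, 3 were above 0 in at least 1 library. These were KRT6A, KRT5 and KRT80, the last at 9.04 FPKM under the brain label and 0 elsewhere. Of 27 type I entries, KRT10 alone was above 0 in any library. By comparison, 45.0% of all named genes in the table were above 0 in at least 1 library. The summed type II level was 86.4 FPKM under the brain label, 237 FPKM under the skin label, 473 FPKM under the lung label, 67.7 FPKM under the heart label and 21.3 FPKM under the limb label. The type I level, that of KRT10, was lower under the lung label than in the other 4. The ratio of type II to type I was therefore 63.6 under the lung label and 11.4 under the skin label, 3.1 under the brain label, 2.48 under the heart label and 1.13 under the limb label. No type I keratin was listed at a level near that of KRT6A under the skin or lung label. KRT13 and KRT38, of type I, and KRT6C, KRT71 and KRT76, of type II, had no entry by name and were not analysed here.

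**Figure D3:**
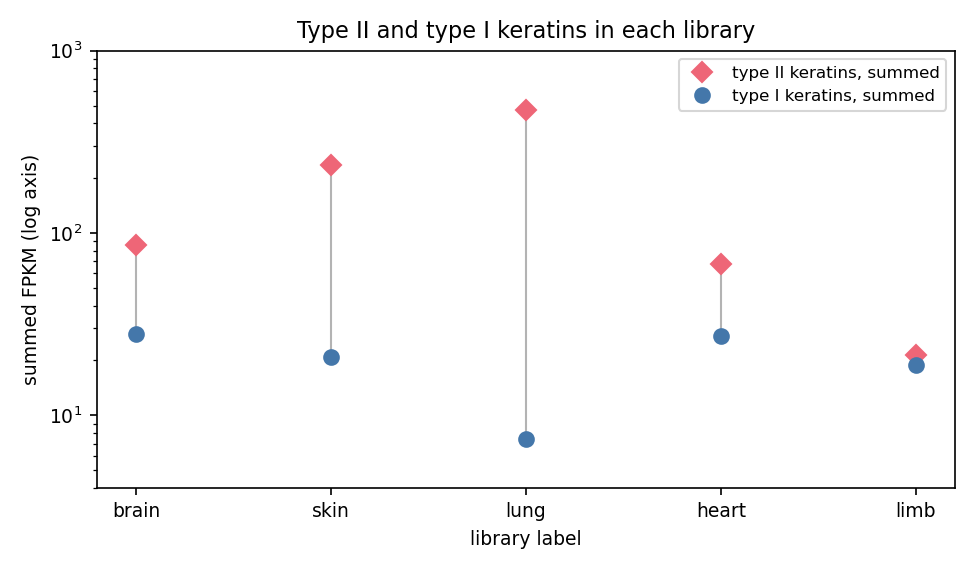
Summed FPKM of type II keratins (diamonds) and type I keratins (circles) by library label, on a log axis; grey lines join the values of 1 library. The types lie closest under the limb label, at 21.3 and 18.9 FPKM, and farthest apart under the lung label, at 473 and 7.43 FPKM.

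Genes of the epithelial junctions that anchor keratin were partly present. Of 12 desmosome entries 6 were above 0 in at least 1 library, where 45.0% of all named genes were. DSP (desmoplakin), the protein that ties keratin to the desmosome, was at 0 in all 5. JUP (plakoglobin) stood at 80.1 FPKM under the lung label, 8.86 to 14.9 FPKM under the brain, skin and heart labels and 0 under the limb label. DSC3, a desmosomal cadherin, was highest under the heart label at 69.7 FPKM and at 0 under the limb label. DSG2 was above 0 only under the heart label, at 21.6 FPKM, and the limb label, at 7.66 FPKM. DSC2 was above 0 only under the brain label, at 15.0 FPKM. PKP4 stood at 6.62 FPKM under the lung label and 4.52 FPKM under the brain label and at 0 elsewhere. The levels of PERP are given above. PLEC (plectin), a giant linker of filaments to other structures, was low in all 5, at 3.05 to 6.55 FPKM. Of 15 general epithelial entries 2 were above 0 in any library, beside the same 45.0% of all named genes. They were SPINT2, a protease inhibitor, at 50.2 to 145 FPKM, and the adhesion protein CDH1, at 55.7 FPKM under the skin label, 14.1 FPKM under the lung label and 13.8 FPKM under the heart label. EPCAM and the other 12 entries were at 0. The part of epithelial cells in the keratin levels was not tested.

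LMNA (ENSBTAG00000017574) stood at 29.9 FPKM under the brain label, 51.8 FPKM under the skin label, 66.0 FPKM under the lung label and 18.5 FPKM under the heart label and was listed at 0 under the limb label. The libraries fell in the same order as for KRT6A, with the lung- and skin-labelled ones highest. Few reads may stand behind such levels. When the heart-labelled library was set over the brain-labelled one, 276 of 3557 genes at 2 to 200 FPKM stood in ratios of whole numbers up to 4, within 0.3%, after an offset of 1.24 between the libraries, against a median of 56 genes over all offsets. LMNA was one of the 276 genes, with a heart-to-brain ratio of 0.499 after the chosen offset, the ratio that 1 read against 2 would give. That count is not established, since other pairs of numbers give the same ratio. NES, KRT6A and KRT10, with ratios of 0.469, 0.708 and 0.792 after the offset, were not on the spacing.

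LMNB1 (ENSBTAG00000002882) stood at 14.0 FPKM under the lung label and was listed at 0 under the brain, skin, heart and limb labels. LMNB2, the gene of the other B-type lamin, was at 11.7 FPKM under the lung label and 3.43 FPKM under the limb label and at 0 elsewhere. Both levels under the lung label were below 29.3 FPKM, the median of the values above 0 in that library, and under the brain, skin and heart labels neither gene was above 0.

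Genes that process lamins or hold them at the envelope were read from a list of 21 entries. Of the 21, 16 were above 0 in at least 1 library, where 45.0% of all named genes were. Of these 16, 8 were highest under the lung label, while 23.3% of all genes above 0 in any library were highest there. SYNE2 was above 0 only under that label, and LMNB2, LBR, TOR1AIP1 and TOR1AIP2 in 2 libraries each. Such entries enter the list mainly through that library, so nothing is read from the count. Of the 3 entries above 0 in all 5 libraries, FNTA alone was highest there. TMPO, which encodes lamina-binding LAP2 proteins, stood at 101 FPKM under the lung label, 43.6 FPKM under the skin label and 6.75 FPKM under the heart label and at 0 in the other 2. The lamin B receptor LBR, which tethers heterochromatin, was at 80.6 FPKM under the lung label and 26.6 FPKM under the brain label and at 0 in the other 3. RCE1, the protease that trims farnesylated lamins, was at 73.7 FPKM under the lung label and 64.8 FPKM under the skin label, 25.7 FPKM under the brain label and 8.82 FPKM under the heart label, and at 0 under the limb label, the same order as LMNA. FNTA, a subunit of the protein farnesyltransferase, ranged from 34.2 FPKM under the limb label to 497 FPKM under the lung label.

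Other envelope genes had other orders. BANF1, a small protein that bridges chromatin and the envelope, was the most abundant of the list, at 925 to 1491 FPKM, and was highest under the skin label. EMD (emerin), a lamin-binding protein of the inner membrane, was highest under the brain label at 50.1 FPKM and at 0 under the heart label. SYNE1, which links the nucleus to the cytoskeleton, was highest under the limb label at 29.3 FPKM and at 0 under the skin and lung labels. ZMPSTE24, the protease that matures prelamin A, was above 0 only under the heart label, at 2.04 FPKM.

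**Figure D4:**
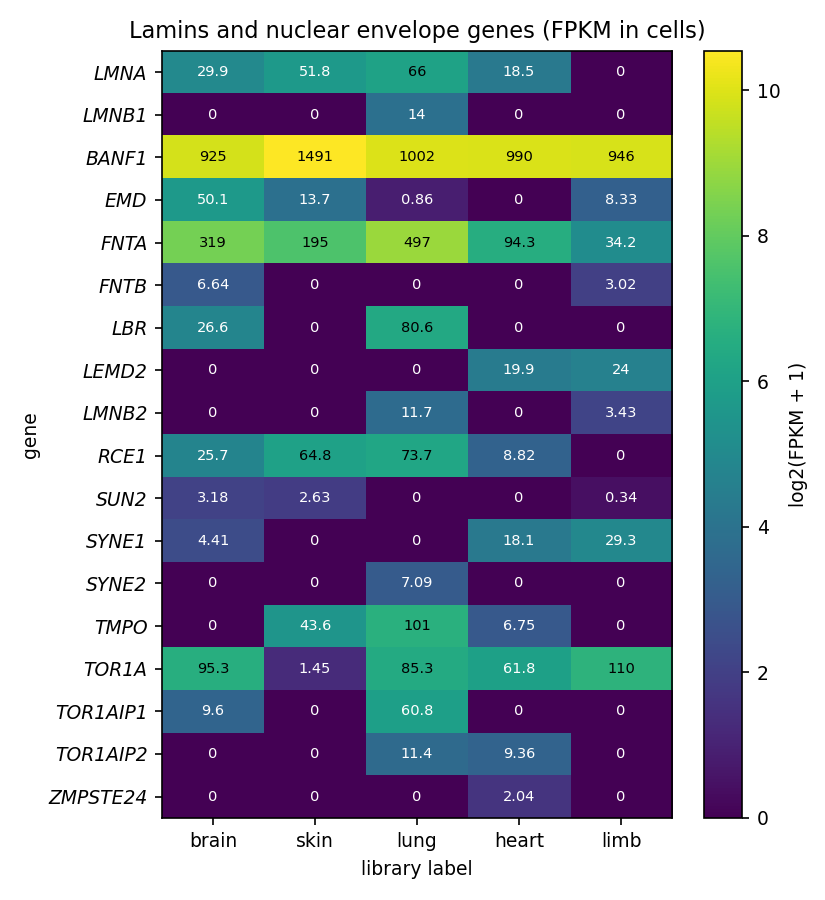
Levels of LMNA, LMNB1 and the 16 lamina and nuclear envelope genes above 0 in at least 1 library, by library label; colour is log2(FPKM + 1) and the printed number is FPKM. TMPO, LBR, RCE1 and FNTA are highest under the lung label, whereas SYNE1 is highest under the limb label and EMD under the brain label.

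Genes of cell division also stood high under the skin and lung labels, where KRT6A and LMNA were highest. The 16 entries of the proliferation list summed to 1375 FPKM under the skin label and 1572 FPKM under the lung label, against 65.8 to 131 FPKM in the other 3. In the skin-labelled library 11 of 16 entries were above 0 (18.5% of all genes) and under the lung label 14 (21.7%). Under the brain, heart and limb labels 4, 3 and 2 were (23.9%, 24.0% and 19.3% of all genes). MKI67 and TOP2A were at 0 in these 3, and MKI67 was low under the skin and lung labels, at 0.54 and 3.44 FPKM. AURKB was highest under the brain label at 39.1 FPKM and at 0 under the skin label. AURKA was above 0 only under the heart label. PCNA, at 318 FPKM under the lung label, was also at 76.1 FPKM under the limb label. The part of dividing cells in the levels of KRT6A, KRT5 and the lamins was not tested.

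How far the genes differed between libraries was set against the whole table. Of the 7 genes that reached 10 FPKM in a library, 5 had a highest value at least 4 times the lowest after adding 1 FPKM, where 83.8% of all genes that reached 10 FPKM did. These were NES, KRT5, KRT6A, LMNA and LMNB1, and their count was no higher than the background share. Among genes above 0 in all 5 libraries the share was 52.9%, and NES and KRT6A but not VIM or KRT10 were in it. The median ratio over all genes above 0 in all 5 libraries that reached 10 FPKM was 4.27, and VIM and KRT10 lay below it and NES and KRT6A above it. Without the lung-labelled library 2 genes spanned 4-fold, namely KRT6A and LMNA.

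Single libraries were then set against the other 4. Of the 5 members at 10 FPKM or more under the lung label, KRT5 and LMNB1 were at least 4 times the level of every other library. Of all genes at that minimum 10.2% were. Both genes were at 0 in the other 4 libraries, so they met the minimum only under that label, which fixed the call. Nothing is read from these calls. No member was called in this way under another label, with backgrounds of 7.45% (brain), 8.84% (skin), 8.17% (heart) and 7.99% (limb). NES was at least 4 times lower under the lung label than in each of the other 4, where 9.19% of genes at 10 FPKM or more in the other 4 were. LMNA was so under the limb label, where 11.2% of genes were. It was listed at 0 there, so the call rests on a value that may be below what the library could show. No member was so low under the brain, skin and heart labels, with backgrounds of 2.76%, 12.7% and 4.27%.

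The lung-labelled library held the highest or the lowest value of each of the 7 genes, which was seen after the values were known. It was highest for KRT6A and LMNA, and for KRT5 and LMNB1, which were above 0 in no other library and so could be highest only there; nothing is read from this count. It was lowest for VIM, NES and KRT10, which is 3 of the 4 genes above 0 in all 5 libraries, where 21.5% of such genes were lowest in that library. The library was singled out from these same values, so nothing is read from that count either. NES and KRT10 had the same order of all 5 libraries in the deposited values, an order that 14 of 2607 genes shared. The match rests on brain- and heart-labelled levels of KRT10 that differed by 2.2%. It was lost when the libraries were rescaled by the median ratio, so nothing is read from it. The order of KRT6A was shared by 41 of 2607 genes.

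The genes whose centred profile lay nearest to each member were found among 1735 or 1736 named genes at 10 FPKM or more in all 5 libraries, by the mean absolute difference in log2(FPKM + 1) over 5 libraries. Nearest to VIM was TMEM219, with a difference of 0.09, followed by RTN4 at 0.12, which shapes the endoplasmic reticulum, and SAP30 at 0.13, of a histone deacetylase complex. RTN4 stood at 510.0 FPKM under the skin label and 166 FPKM under the lung label. Nearest to NES were SMIM11A at 0.25, GPX7 at 0.31, a peroxidase of the endoplasmic reticulum, and the small GTPase RAB32 at 0.33.

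Nearest to KRT10 were SELENOS at 0.09, a selenoprotein of the endoplasmic reticulum, C19H17orf49 at 0.13 and TXNDC9 at 0.15. Nearest to KRT6A were HMGB2 at 0.30, a chromatin protein of dividing cells, the cytokine MIF at 0.37 and EIF4A3 at 0.40, a helicase of the exon junction complex. HMGB2 stood at 321 FPKM under the lung label and 120.3 FPKM under the skin label, and at 26.4 to 53.9 FPKM in the other 3. Among the members themselves, VIM and KRT10 were nearest to each other at 0.34, and NES and KRT6A farthest apart at 2.05 on the log2 scale.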

How the data were processed

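The authors deposited 1 table of 27607 genes in 5 columns, matched to the libraries by title. Its unit is not named in the table or the labels. The deposited values were taken as FPKM by elimination, since 98.7% to 99.1% of those above 0 had decimals and each column summed to more than the fixed total of TPM. Per the submitters' processing notes, bcl2fastq, STAR and RSEM were used with the ARS-UCD1.2 build; the sources used here give no versions or annotation. Pooling and filters are not stated. The RefSeq table of ARS-UCD2.0 matched 0 of the gene identifiers, so it served only for gene neighbours and no coordinates are given.

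The genes were matched by symbol, and levels, ratios and counts were computed with Python 3.11.15 and pandas 2.3.3. Ratios used a pseudocount of 1 FPKM, a minimum of 10 FPKM in the higher value and a threshold of 4, which understates ratios of low genes. No ratio is printed for a gene with a library at 0. The 4-fold rules did use libraries at 0, after adding 1 FPKM, and the calls of KRT5, LMNA and LMNB1 rest on such libraries. No count model or test was run, as there are no counts and no replicates. The rules were tested on simulated data. All 10 members are named, with genes above 0 from lists of filaments, linkers, lamina partners and cell type markers, and the 3 nearest profiles per member above 0 in all 5 libraries. Members and lists were chosen with earlier results of these data known. Alternatives were other pseudocounts, minimums and ratios, 3 rescalings and each library left out.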

Additional observations from a re-analysis of the deposited data

How the results depend on the processing

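Leaving out 1 library at a time gave 2 to 5 members spanning 4-fold, and the ratio of NES between 3.41 and 15.8, the low end of both without the lung-labelled library. With 5 FPKM added, 1 member was enriched (KRT5) and 1 depleted (LMNA), in place of 2 and 2. A minimum of 50 FPKM left 1 enriched and 0 depleted, and a ratio of 2 gave 4 depleted, with KRT10 under the lung label and KRT6A under the limb label added. Rescaling by the median ratio moved the libraries by -0.06 (heart label) to 0.14 (lung label) on the log2 scale and changed no call. No paired analysis was possible because each label has 1 library. Of the 3 genes nearest to NES, 1 stayed among the nearest when all genes above 0 in all 5 libraries were candidates, and of the 3 nearest to VIM, 1 stayed by the largest absolute difference. Low levels, such as that of LMNB1, may rest on few reads.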

Other observations

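Markers of cell types that use the filament genes listed at 0 were read as values. Of 10 muscle entries, ACTC1 (cardiac actin) stood at 231 FPKM under the limb label, 57.7 FPKM under the brain label and 5.21 FPKM under the heart label, and at 0 under the skin and lung labels. Skeletal ACTA1 was also highest under the limb label, at 37.6 FPKM. The slow troponin TNNT1 was at 18.1 FPKM there and at 0 elsewhere. MYH6 was above 0 only under the brain label, at 2.68 FPKM. MYOD1, MYOG and CKM were at 0 in all 5, as DES was. Of 7 mesothelial entries, MSLN (mesothelin) ranged from 1.21 FPKM under the skin label to 73.5 FPKM under the heart label and PDPN (podoplanin) from 3.23 FPKM under the heart label to 27.7 FPKM under the brain label. WT1, UPK3B and CALB2 were at 0 in all 5, as were KRT8, KRT18 and KRT19, the keratins of mesothelium. Of the remaining filament genes, SYNC (syncoilin) stood at 15.5 FPKM under the brain label and 2.93 FPKM under the limb label, and the lens filament gene BFSP1 at 0.35 FPKM under the skin label.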
